A study of Mus musculus with 12 samples.

Results

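Rab GTPases were followed across 2 epithelial structures of the growing mouse mammary gland. They are small membrane switches that are active with GTP bound and inactive with GDP. Each sits on particular membranes and recruits the motors, tethers and fusion factors that move a vesicle to its target. Exchange factors (GEFs) load GTP, GTPase-activating proteins (GAPs) end the active state, and a lipid tail added by a prenyltransferase holds the protein on the membrane. In a gland epithelium Rabs serve polarised delivery of receptors and adhesion proteins as well as secretion. The members were all probes whose platform gene symbol is Rab, a number and optional letters, and that name a Rab GTPase. This gave 43 genes of the 12913 named on the array, measured by 45 of its 17589 probes, with 3 probes for Rab27a and 1 for each other gene. The name pattern also took 3 probes of Rab5if and Rab10os, which name an interacting factor and an opposite-strand transcript, and these were left out.

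Terminal end buds, the bulbous growing tips of the ductal tree, and the mature ducts behind them were microdissected from 5 week old glands of reporter mice that express GFP from the beta-actin promoter. RNA of 6 terminal end bud samples and 6 duct samples was labelled with Cy5 and hybridised together with Cy3-labelled RNA of distal stroma, the part of the fat pad that holds no epithelium, on 12 arrays. The sources used here do not give strain or any pooling of animals, nor whether the arrays stand for different animals. A p-value below therefore reflects array-to-array spread alone, which may be technical. The deposited ratios were taken as log2; were they natural logarithms, sizes would change but no sign or p-value. Stroma served as the common partner and is 1 control sample, and variation among stromal samples does not enter the tests. All arrays had the same dye orientation, so a dye bias of a single probe would remain in its ratio to stroma.

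The labelled structures were checked against marker genes. All 8 luminal epithelial markers were higher than stroma in both structures, and their mean log2 ratio ran from 3.33 to 4.07 on the terminal end bud arrays and from 2.77 to 3.39 on the duct arrays. The mean of 7 basal and myoepithelial markers ran from 1.16 to 1.70 in terminal end buds and from 1.99 to 2.74 in ducts. Adipocyte markers, of which 7 were measured, lay between -1.62 and -1.01 in terminal end buds and between -0.70 and -0.47 in ducts. The 5 endothelial markers lay between -1.68 and -1.21, and between -0.67 and -0.23. The marker genes themselves had mean ratios in terminal end buds and ducts of 5.19 and 4.98 for Krt18, 1.502 and 2.79 for Krt14, -0.46 and -0.21 for Adipoq and -1.70 and -0.46 for Pecam1. The mean of 5 brown adipocyte markers lay between -2.99 and -2.28 in terminal end buds and between -2.49 and -1.049 in ducts. The 6 fibroblast markers were not below stroma, with means from -0.15 to 0.67 and from 0.12 to 1.29. Of these, 1 was higher in terminal end buds and 3 in ducts, Col1a1 at 1.47 and 0.77 and Col3a1 at -0.19 and 1.04 (adjusted p of the difference of Col3a1 = 0.00328 with limma). Between the structures, 4 of the 8 luminal markers were higher in terminal end buds with limma, and Krt18 was not among them (adjusted p = 0.625). Lower in terminal end buds were 4 of 7 basal, 5 of 5 endothelial and 1 of 6 fibroblast markers, and 5 of 8 adipocyte probes. Luminal, basal, fat and vessel markers and 1 fibroblast marker thus differed between the structures. Their part in the Rab differences was not tested. In such bulk RNA, fewer cells of a type and less RNA per cell cannot be told apart.

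Most Rab genes lay close to the stromal level, with 34 of the 45 probes within 0.5 of 0 on the log2 scale in both structures. In terminal end buds 13 probes (28.9%) were higher and 10 (22.2%) lower than stroma with limma at an adjusted p of 0.05, where 23.2% of all probes were higher and 20.4% lower (43.6% either way). In ducts 10 were higher (22.2%) and 5 lower (11.1%), against 16.0% and 12.2% of all probes (28.2% either way). Between the structures 2 members were higher in terminal end buds and 9 lower (4.44% and 20.0%), against 8.32% and 10.4% of all probes (18.7% either way). The medians of the members were -0.00 in terminal end buds, 0.04 in ducts and 0.02 for the difference, and those of all probes were 0.01, 0.02 and 0.00. Of the members, 6 were higher in both structures, 2 were lower in both and 15 passed in no comparison. At least 2-fold above stroma were 2 members in each structure, Rab25 and Rab15, and 0 were 2-fold below with limma at either an adjusted or an unadjusted p of 0.05. Of all probes, 3.74% were 2-fold above and 3.48% 2-fold below in terminal end buds, and 1.81% and 0.603% in ducts. All 45 had values on all 12 arrays.

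**Figure D1:**
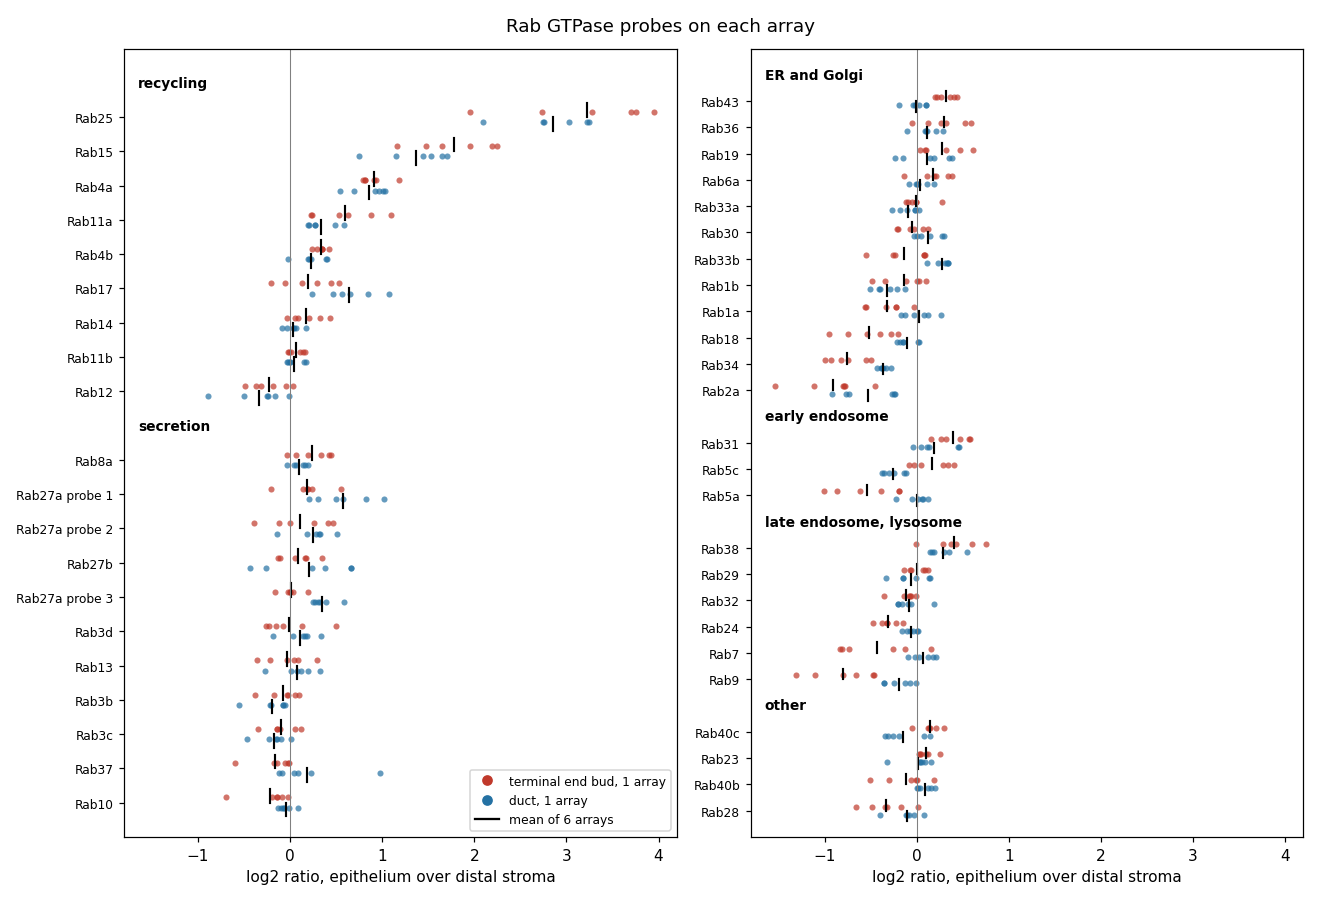
Log2 ratio over distal stroma (horizontal axis) of each Rab probe (rows, sorted into groups by transport step) on 6 terminal end bud arrays (red) and 6 duct arrays (blue), with the group means as black bars. Rab25, Rab15 and Rab4a lie to the right on every array, and Rab2a, Rab34 and Rab9 lie left of 0 on every array.

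The Rabs of recycling endosomes, the compartments that return endocytosed receptors to the cell surface, held the highest ratios. Of 9 members, 6 were higher than stroma in terminal end buds and 6 in ducts (66.7% each, against 23.2% and 16.0% of all probes). With limma, 0 were lower in terminal end buds (1 at an unadjusted p of 0.05), against 20.4% of all probes. Rab12 alone was lower in ducts (11.1%, against 12.2%). Rab25, the epithelial relative of Rab11 that serves apical recycling and integrin transport, had its lowest value of 1.95, its median of 3.49 and its highest value of 3.95 on the terminal end bud arrays. On the duct arrays these were 2.09, 2.89 and 3.25. The lowest value of each structure came from the neighbouring slides 190 and 191, and the ranges overlapped widely. Mean ratios were 3.23 (SE 0.22, adjusted p = 3.11e-08 with limma), or 9.37-fold, and 2.85 (SE 0.22, adjusted p = 5.29e-07), or 7.20-fold. The difference between the structures was 0.38 (95% interval -0.28 to 1.04, adjusted p = 0.469), and it was -0.18 (adjusted p = 0.75) when all arrays were given a common median absolute deviation.

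The close relatives of Rab25 stood far lower. Rab11a, which directs the slow recycling route, ran from 0.23 over a median of 0.58 to 1.09 in terminal end buds and from 0.19 over 0.27 to 0.58 in ducts. All 12 arrays were above 0, with means of 0.60 (SE 0.10, adjusted p = 0.000203 with limma) and 0.33 (SE 0.10, adjusted p = 0.0241). The duct call was lost without duct replicate 1 or without duct replicate 2, with adjusted p up to 0.081. The 2 terminal end bud arrays on slides up to 193 averaged 0.23 (adjusted p = 0.11) and the 4 on slides from 196 on averaged 0.78. The difference of Rab11a between the structures was 0.27 (95% interval -0.04 to 0.57, adjusted p = 0.244 with limma). It was -0.30 on slides up to 193 and 0.55 on slides from 196 on, where it passed (adjusted p = 0.0192). Rab11b, known mainly from brain and secretory tissues, was at 0.06 (SE 0.05, adjusted p = 0.336) and 0.04 (SE 0.05, adjusted p = 0.562).

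The start regions of Rab25 and Rab11a are shown because these relatives gave the highest ratio and a small one. Each runs from 250 bases before to 50 after the transcript start as given by RefSeq on GRCm38.p6, Rab25 at chr3:88548230-88548529 and Rab11a at chr9:64737707-64738006, both on the minus strand. Capitals mark matches on either strand to TATAAA (the core promoter motif of that name), GGGCGG (GC box), CCAAT (bound by NF-Y), CACGTG (the E-box of the CLEAR element of lysosomal genes), CCGGAAG (ETS site), AGATAA (site of GATA factors), AACCNGTT (grainyhead site) and CACCTG (E-box of the ZEB and Snail type).
Rab25: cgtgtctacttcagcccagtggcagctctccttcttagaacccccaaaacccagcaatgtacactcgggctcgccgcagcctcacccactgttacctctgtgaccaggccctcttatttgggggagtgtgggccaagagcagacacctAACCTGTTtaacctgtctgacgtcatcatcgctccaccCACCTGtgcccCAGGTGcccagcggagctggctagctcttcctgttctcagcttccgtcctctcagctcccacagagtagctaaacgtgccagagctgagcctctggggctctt
Rab11a: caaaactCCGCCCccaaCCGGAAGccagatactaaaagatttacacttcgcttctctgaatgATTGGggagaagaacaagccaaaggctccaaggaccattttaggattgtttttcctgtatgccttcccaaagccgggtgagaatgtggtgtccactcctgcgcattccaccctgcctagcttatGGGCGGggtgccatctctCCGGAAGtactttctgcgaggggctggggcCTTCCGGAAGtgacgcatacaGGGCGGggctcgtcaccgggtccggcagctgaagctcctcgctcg
The Rab25 window held 1 match to AACCNGTT and 2 to CACCTG, and no match to the other 6 patterns. AACCNGTT occurs in 2.08% of 32817 start regions of this length and CACCTG in 20.2%. Both patterns were chosen after the start regions were read, so these shares cannot tell how unusual the matches are. The Rab11a window held 3 matches to GGGCGG, 4 to CCGGAAG of which 2 overlap on opposite strands, and 1 to CCAAT. These occur in 35.6%, 8.86% and 37.4% of start regions. CpG pairs in the Rab25 window stood at 0.371 of the number its base composition gives, against 0.672 for Rab11a and a median of 0.383 over all start regions. A match is a description of letters and not a binding site.

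Rab15, which acts at early and recycling endosomes, was the second highest member. It ran from 1.16 over a median of 1.80 to 2.24 in terminal end buds and from 0.74 over 1.49 to 1.71 in ducts. Means were 1.78 (SE 0.14, adjusted p = 1.69e-07 with limma) and 1.37 (SE 0.14, adjusted p = 8.96e-06), and the difference of 0.41 (95% interval -0.03 to 0.84) did not pass (adjusted p = 0.204). It passed with neighbouring slides, 1 of each structure, as a block (adjusted p = 0.0262) and with early against late slides as a term (adjusted p = 0.024). Rab4a, a GTPase of rapid recycling, ran from 0.79 over 0.86 to 1.18 in terminal end buds and from 0.55 over 0.95 to 1.03 in ducts, with means of 0.91 (SE 0.07) and 0.86 (SE 0.07) and a difference of 0.04 (95% interval -0.17 to 0.26). Its close relative Rab4b was at 0.33 (SE 0.06) and 0.23 (SE 0.06). All 4 values passed, with adjusted p between 1.48e-07 and 0.0072. Every Rab4a array was above 0 and the groups overlapped, with terminal end bud replicate 5 apart from the other 5 at 1.18.

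Rab17, an epithelial Rab of polarised recycling, was the member of this group that leaned towards ducts. It ran from -0.21 over a median of 0.21 to 0.53 in terminal end buds and from 0.23 over 0.60 to 1.08 in ducts. The mean was 0.64 in ducts (SE 0.11, adjusted p = 0.000518 with limma) and 0.19 in terminal end buds (adjusted p = 0.184). The difference of -0.45 (95% interval -0.78 to -0.12) missed the threshold (adjusted p = 0.0573). It was 0.14 on slides up to 193 and -0.74 on slides from 196 on, and it passed on the later slides alone. It also passed with quantile normalization and with a common median absolute deviation. The same held without terminal end bud replicate 1, terminal end bud replicate 2 or duct replicate 1. Of the rest, Rab14, which links the Golgi and recycling endosomes, was higher in terminal end buds at 0.18 (adjusted p = 0.0329). Rab12 was at -0.23 in terminal end buds (adjusted p = 0.0769) and lower in ducts at -0.34 (adjusted p = 0.0182), where its arrays ran from -0.89 over a median of -0.25 to -0.01. Its duct call was lost without duct replicate 2 and without duct replicate 4 (adjusted p up to 0.0593). The terminal end bud call of Rab14 was lost without terminal end bud replicate 1, 5 or 6, and with each of the 3 rescalings of the arrays.

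**Figure D2:**
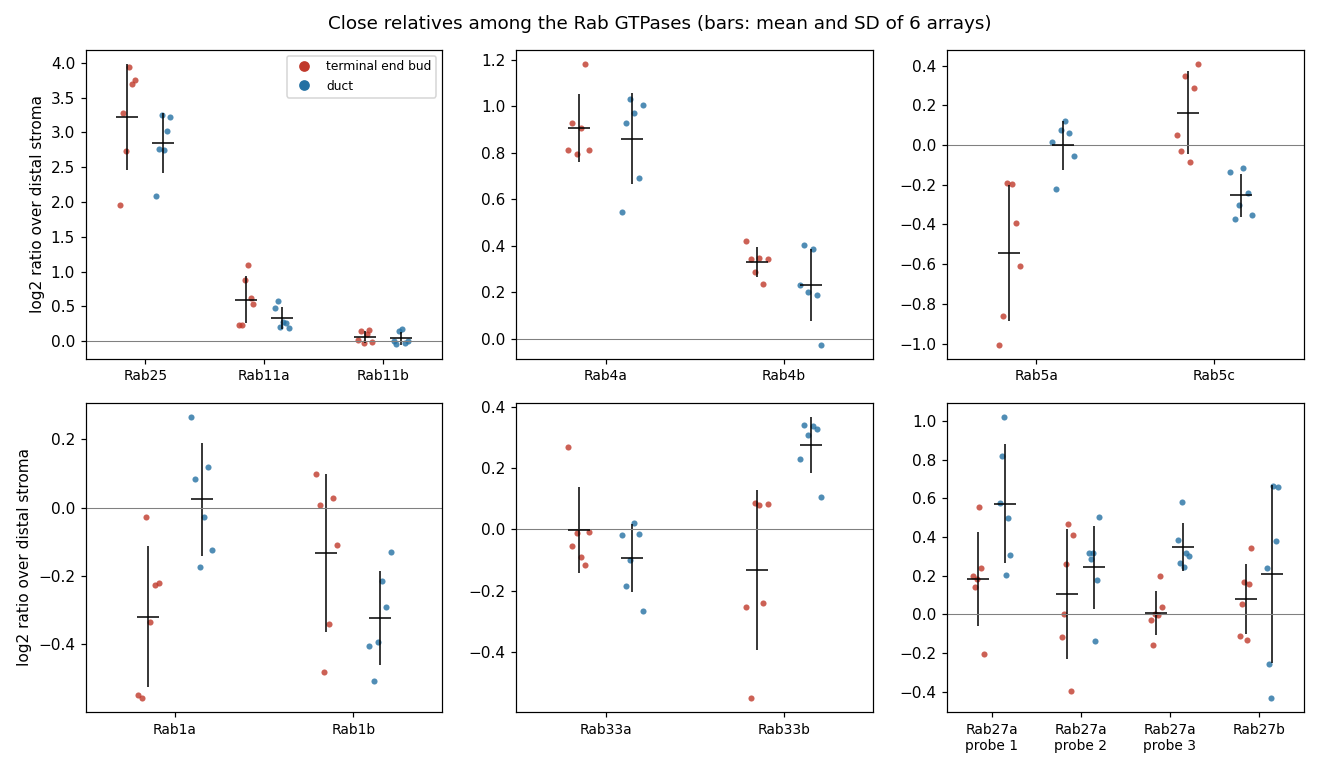
Log2 ratio over distal stroma (vertical axis, own scale in each panel) of close Rab relatives on single arrays of terminal end buds (red) and ducts (blue), with mean and SD of 6 arrays in black. Rab25 lies above Rab11a and Rab11b, and Rab5a and Rab5c lie in opposite order between the structures.

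Rabs of secretion and of delivery to the plasma membrane were mostly near 0. Of 11 probes for 9 genes, 1 was higher and 1 lower in terminal end buds (9.09% each, against 23.2% and 20.4% of all probes). In ducts 2 were higher (18.2%, against 16.0%). The 2 duct calls were probes of Rab27a, which docks secretory lysosomes and exosome-bearing endosomes at the plasma membrane. Rab27a probe 1 ran from -0.21 over a median of 0.19 to 0.56 in terminal end buds and from 0.20 over 0.54 to 1.02 in ducts. Rab27a probe 3 ran from -0.16 over -0.00 to 0.20 and from 0.24 over 0.31 to 0.58, so that all duct arrays lay above all terminal end bud arrays. The duct means were 0.57 (SE 0.10, adjusted p = 0.000866 with limma) and 0.35 (SE 0.06, adjusted p = 0.000372), with 0.24 (adjusted p = 0.103) for Rab27a probe 2. Rab27a probe 2 ran from -0.40 over 0.13 to 0.47 in terminal end buds and from -0.14 over 0.30 to 0.51 in ducts. The difference of terminal end bud from duct was -0.39 (adjusted p = 0.0877), -0.14 (adjusted p = 0.594) and -0.34 (adjusted p = 0.00814) for probes 1, 2 and 3. All 3 pointed the same way, and 1 passed.

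The other secretory Rabs gave small values. Rab27b, a relative of Rab27a in secretory cells, was at 0.08 in terminal end buds and 0.21 in ducts (adjusted p = 0.657 and 0.258 with limma), and its arrays ran from -0.13 over a median of 0.11 to 0.34 and from -0.43 over 0.31 to 0.66. Rab3d, which is known from regulated exocytosis in gland cells, ran from -0.26 over -0.12 to 0.49 in terminal end buds and from -0.18 over 0.15 to 0.33 in ducts, with means of -0.02 and 0.11 (adjusted p = 0.905 and 0.41). Rab8a, which carries vesicles to the apical surface and the cilium, was higher in terminal end buds at 0.24 (SE 0.07, adjusted p = 0.00844) and at 0.09 in ducts (adjusted p = 0.323). Rab10, which acts in basolateral delivery and in glucose transporter transport of fat cells, was lower in terminal end buds at -0.21 (adjusted p = 0.0289). That call was lost without terminal end bud replicate 2, which held the lowest value of -0.69, and without terminal end bud replicate 6. Rab3b, Rab3c, Rab13 and Rab37 passed in neither structure, with means between -0.20 and 0.19. Rab3b and Rab3c, at -0.20 and -0.18 in ducts, passed as lower there with centring, quantile normalization or a common median absolute deviation.

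Rabs of the endoplasmic reticulum and Golgi held calls in both directions. Of 12 members, 4 stood above and 4 below stroma in terminal end buds (33.3% each, against 23.2% and 20.4% of all probes), and 1 was higher and 3 lower in ducts (8.33% and 25.0%, against 16.0% and 12.2%). Rab2a, which acts in traffic between the endoplasmic reticulum and Golgi, was the lowest member in both structures. It ran from -1.54 over a median of -0.80 to -0.45 in terminal end buds and from -0.92 over -0.50 to -0.24 in ducts. All 12 arrays were below 0, with means of -0.91 (SE 0.13, adjusted p = 3.09e-05 with limma) and -0.53 (SE 0.13, adjusted p = 0.00564). The difference between the structures, -0.38 (95% interval -0.76 to 0.00), did not pass (adjusted p = 0.173), and passed with neighbouring slides as a block (adjusted p = 0.0243).

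Rab34, a Golgi-linked Rab known from cilium formation, was the other member that passed as lower than stroma in both structures. It ran from -0.99 over a median of -0.78 to -0.50 in terminal end buds and from -0.43 over -0.37 to -0.28 in ducts. The groups did not overlap and the duct arrays lay very close together. Means were -0.76 (SE 0.06, adjusted p = 2.55e-07 with limma) and -0.36 (SE 0.06, adjusted p = 0.000641), and the difference of -0.39 passed (adjusted p = 0.00687). With quantile normalization it was -0.15 (adjusted p = 0.298).

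Rab18, which sits on the endoplasmic reticulum and on lipid droplets, ran from -0.95 over a median of -0.47 to -0.20 in terminal end buds and from -0.21 over -0.15 to 0.03 in ducts. The mean of -0.52 in terminal end buds passed (SE 0.08, adjusted p = 0.000145 with limma), and the difference from ducts was -0.41 (adjusted p = 0.0266), a call lost without terminal end bud replicate 5, duct replicate 1 or duct replicate 5 (adjusted p up to 0.0598). Rab1a, a GTPase of the first step from the endoplasmic reticulum to the Golgi, was lower in terminal end buds at -0.32 (adjusted p = 0.00307) and at 0.02 in ducts (adjusted p = 0.855), with a difference of -0.34 (adjusted p = 0.0374). That difference lost its call without terminal end bud replicate 1, 2 or 4 and without duct replicate 1, 2, 4 or 5, and with neighbouring slides as a block (adjusted p = 0.102). Its near copy Rab1b was at -0.13 in terminal end buds (adjusted p = 0.185) and lower in ducts at -0.32 (adjusted p = 0.0057), where its arrays ran from -0.51 over a median of -0.34 to -0.13. The difference of Rab1b was 0.19 (95% interval -0.04 to 0.42, adjusted p = 0.275).

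Rab33b, a Golgi Rab that also takes part in autophagy, ran from -0.55 over a median of -0.08 to 0.09 in terminal end buds and from 0.11 over 0.32 to 0.34 in ducts. All duct arrays were above all terminal end bud arrays, and the duct mean of 0.27 (adjusted p = 0.017) and the difference of -0.41 (adjusted p = 0.0185) passed with limma. Rab33a was at -0.00 and -0.09. Rab43, a Rab of transport between the endoplasmic reticulum and the Golgi, ran from 0.20 over 0.31 to 0.43 in terminal end buds and from -0.19 over 0.01 to 0.10 in ducts, again without overlap. It was higher than stroma in terminal end buds at 0.31 (SE 0.05, adjusted p = 0.000215), and the difference of 0.32 passed (adjusted p = 0.00867). Rab36, a relative of Rab34, Rab19 and the Golgi Rab6a were higher in terminal end buds at 0.29, 0.27 and 0.18 (adjusted p = 0.00699, 0.0296 and 0.0352) and did not pass in ducts. Single arrays decided some of these: the call of Rab19 was lost without terminal end bud replicate 1, 4 or 6, and that of Rab6a without replicate 1, 3, 4 or 6. Both were also lost with quantile normalization and with a common median absolute deviation. Rab30 passed nowhere.

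Early endosome Rabs gave opposite results for relatives. Rab5a and Rab5c both drive fusion of early endosomes. Rab5a ran from -1.005 over a median of -0.50 to -0.19 in terminal end buds and from -0.22 over 0.04 to 0.12 in ducts. Rab5c ran from -0.08 over 0.17 to 0.41 in terminal end buds and from -0.37 over -0.27 to -0.12 in ducts, so that all its terminal end bud arrays were above all its duct arrays. Rab5a was lower than stroma in terminal end buds at -0.54 (SE 0.10, adjusted p = 0.000341 with limma) and at -0.00 in ducts (adjusted p = 0.993). Rab5c was at 0.16 in terminal end buds (adjusted p = 0.0766) and lower than stroma in ducts at -0.25 (adjusted p = 0.0143). The differences of terminal end bud from duct were -0.54 for Rab5a (95% interval -0.84 to -0.25, adjusted p = 0.0127) and 0.42 for Rab5c (95% interval 0.20 to 0.63, adjusted p = 0.00859). The duct call of Rab5c was lost on slides up to 193 alone (adjusted p = 0.17) and on slides from 196 on alone (adjusted p = 0.066), while its value was -0.25 on each. Rab31, which carries cargo from the Golgi to endosomes, ran from 0.15 over 0.39 to 0.58 in terminal end buds and from -0.04 over 0.13 to 0.45 in ducts. It was higher in terminal end buds at 0.39 (SE 0.08, adjusted p = 0.000756) and at 0.19 in ducts (adjusted p = 0.0789).

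The start regions of the Rab5 genes are shown because these relatives differed in opposite directions, Rab5a at chr17:53478984-53479283 on the plus strand and Rab5c at chr11:100738166-100738465 on the minus strand, with capitals as above.
Rab5a: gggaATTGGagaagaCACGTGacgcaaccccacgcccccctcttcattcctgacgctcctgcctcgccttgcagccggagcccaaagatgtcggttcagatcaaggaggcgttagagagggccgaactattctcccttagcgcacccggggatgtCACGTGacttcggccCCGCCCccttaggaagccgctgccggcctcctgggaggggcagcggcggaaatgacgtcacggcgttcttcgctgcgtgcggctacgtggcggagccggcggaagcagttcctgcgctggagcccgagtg
Rab5c: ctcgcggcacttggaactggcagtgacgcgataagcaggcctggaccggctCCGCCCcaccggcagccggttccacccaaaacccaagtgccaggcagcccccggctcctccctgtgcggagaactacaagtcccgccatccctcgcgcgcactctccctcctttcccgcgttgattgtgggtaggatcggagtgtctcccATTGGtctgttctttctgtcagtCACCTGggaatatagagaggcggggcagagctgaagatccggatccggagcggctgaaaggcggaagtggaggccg
Both windows held 1 match to GGGCGG and 1 to CCAAT. The Rab5a window held 2 matches to CACGTG, which occurs in 7.15% of start regions, and the Rab5c window held 1 to CACCTG. Among all 46 Rab start regions, CACGTG was found in 4 (8.70%), those of Rab23, Rab24, Rab27a and Rab5a.

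Among 6 Rabs of late endosomes and lysosomes, 3 were lower than stroma in terminal end buds, 1 was higher and 2 did not pass. These shares were 50% lower and 16.7% higher, against 20.4% and 23.2% of all probes. In ducts 1 was higher (16.7%, against 16.0% of all probes). With limma 0 were lower there (0 also at an unadjusted p of 0.05), against 12.2% of all probes. Rab9, which returns mannose 6-phosphate receptors from late endosomes to the Golgi, ran from -1.31 over a median of -0.73 to -0.46 in terminal end buds and from -0.36 over -0.19 to -0.01 in ducts, without overlap. Its mean was -0.80 in terminal end buds (SE 0.10, adjusted p = 1.17e-05 with limma) and -0.19 in ducts (adjusted p = 0.172). Every array of both structures was below 0, and the duct mean passed as lower when each group was fitted alone. The difference of -0.61 (SE 0.14, adjusted p = 0.00739) had the largest size among the members. It was -0.42 with quantile normalization (adjusted p = 0.0598), -1.02 on slides up to 193 alone and -0.41 on slides from 196 on alone (adjusted p = 0.108).

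Rab7, which controls late endosome maturation and fusion with lysosomes, ran from -0.83 over a median of -0.50 to 0.15 in terminal end buds and from -0.09 over 0.07 to 0.21 in ducts. The terminal end bud arrays were split, with terminal end bud replicates 1, 2 and 5 at -0.83, -0.81 and -0.74 and replicates 3, 4 and 6 between -0.25 and 0.15. The mean was -0.43 (SE 0.11, adjusted p = 0.00601 with limma), and the difference from ducts was -0.51 (adjusted p = 0.0405). That difference lost its call in 8 of the 12 fits that left out a single array, with adjusted p up to 0.0886: terminal end bud replicates 1, 2 and 5 and duct replicates 1, 3, 4, 5 and 6. On slides from 196 on alone the terminal end bud mean was -0.24 (adjusted p = 0.152). Rab24, which is linked to autophagy, ran from -0.48 over -0.32 to -0.15 in terminal end buds and from -0.16 over -0.05 to 0.01 in ducts. It was lower than stroma in terminal end buds at -0.31 (SE 0.05, adjusted p = 0.000142) and lower than in ducts by a difference of -0.25 (adjusted p = 0.0229), which lost its call without terminal end bud replicate 1, without duct replicate 1 and with neighbouring slides as a block (adjusted p = 0.0597).

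Rab38, which acts with Rab32 in forming melanosomes and other lysosome-related organelles, was the member of this group above stroma. It ran from -0.00 over a median of 0.40 to 0.75 in terminal end buds and from 0.14 over 0.24 to 0.55 in ducts, with means of 0.40 (adjusted p = 0.00116 with limma) and 0.28 (adjusted p = 0.0215). The duct call was lost without duct replicate 2 and without duct replicate 5. Rab32 was at -0.12 and -0.09 and Rab29 at -0.00 and -0.06, and neither passed. Among the members with other roles, Rab28 was lower in terminal end buds at -0.33 (adjusted p = 0.00373). Rab23, which restrains Hedgehog signalling, was at 0.10 and 0.01, Rab40b at -0.12 and 0.09, and Rab40c at 0.14 and -0.15, and these 3 passed in no comparison.

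**Figure D3:**
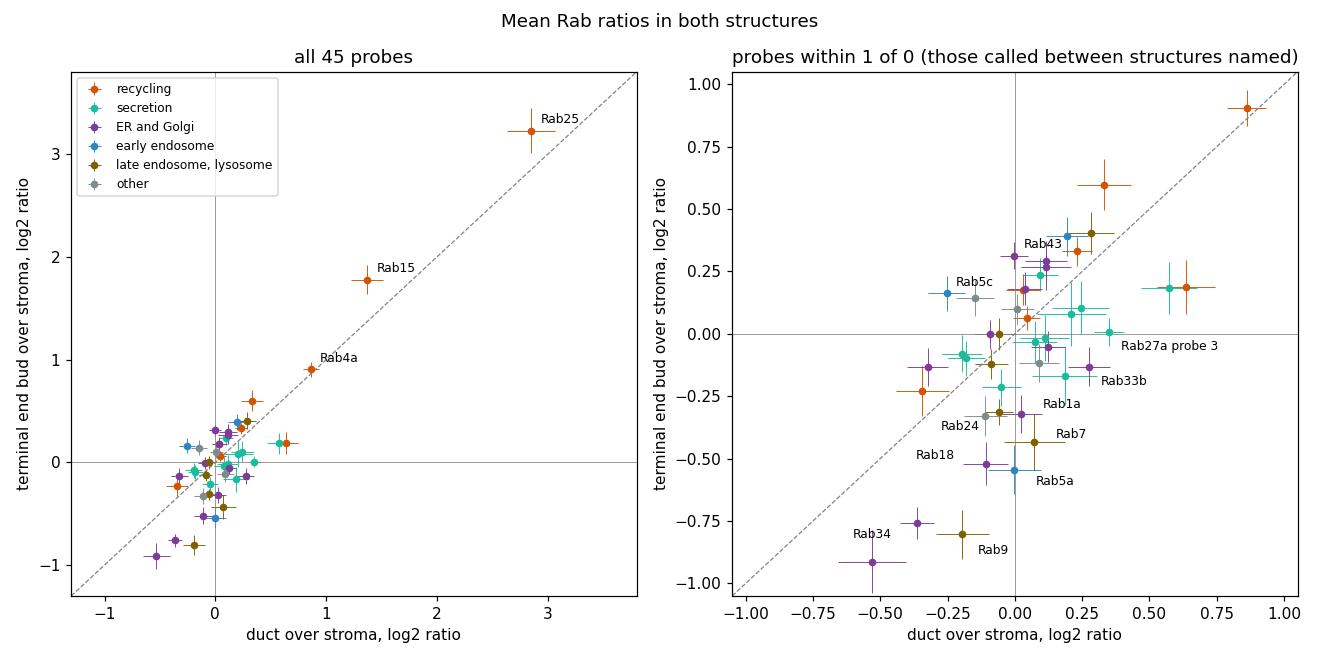
Mean log2 ratio over stroma in ducts (horizontal axis) and terminal end buds (vertical axis) for all 45 Rab probes (left) and those within 1 of 0 (right), coloured by transport step, with the standard errors of the fit. Rab9, Rab5a and Rab7 lie below the dashed line of equal ratios, and Rab5c and Rab43 above it.

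Set side by side, terminal end buds and ducts differed in 11 members, with Rab43 and Rab5c higher in terminal end buds. The 9 lower ones were Rab9, Rab5a, Rab7, Rab18, Rab33b, Rab34, Rab27a probe 3, Rab1a and Rab24. They come from the late endosome (3 of 6 members), endoplasmic reticulum and Golgi (4 of 12), early endosome (1 of 3) and secretion (1 of 11) groups. Of all probes, 10.4% were lower and 8.32% higher in this comparison. Whether any of these small groups departed from those shares was not tested. Among the 9 recycling Rabs, 0 passed with limma in either direction, and at an unadjusted p of 0.05 there were 0 higher and 1 lower. With neighbouring slides as a block 9 of the 11 calls were kept, Rab1a and Rab24 were lost, and Rab2a and the recycling Rab15 were gained. In 2 members all 6 terminal end bud arrays were above all 6 duct arrays and in 4 they were below, where 4.42% and 5.79% of all probes did so. Terminal end bud arrays had wider ratios than duct arrays over all probes, with an SD between 0.535 and 0.635 against 0.380 to 0.484. With quantile normalization, which gives every array the same spread, 5 of the 11 calls were kept, Rab9, Rab7, Rab18, Rab34, Rab1a and Rab24 were lost, and 2 were gained, Rab17 and Rab27a probe 1. With a common median absolute deviation 7 were kept, Rab7, Rab18, Rab1a and Rab24 were lost, and the same 2 were gained.

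**Figure D4:**
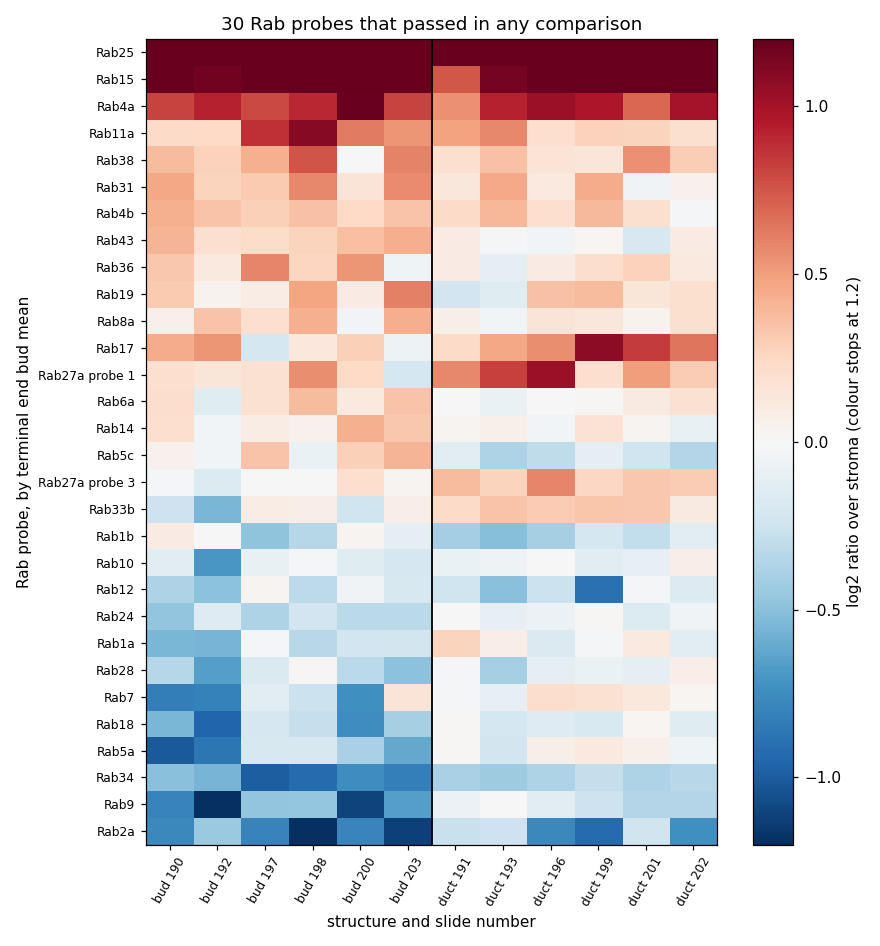
Log2 ratio over stroma (colour, stopping at 1.2 either way) of the 30 Rab probes that passed in any comparison (rows) on each array (columns, by structure and slide number). The lower rows are darkest blue on bud slides 190, 192 and 200 for Rab7, Rab18 and Rab9, while Rab34 is darkest on slides 197 and 198.

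The members below stroma did not move as a block over the arrays. The mean of the 10 members lower in terminal end buds was -0.60 and -0.70 on terminal end bud replicates 1 and 2, the slides up to 193, and between -0.55 and -0.35 on the other 4. Of these 10, 3 had their lowest value on replicate 1 and 5 on replicate 2. Rab5a averaged -0.93 on the first 2 arrays and -0.35 on the other 4, Rab7 -0.82 and -0.24, and Rab18 -0.75 and -0.40. Rab34 and Rab2a went the other way, at -0.53 and -0.87 and at -0.61 and -1.06. Adipocyte markers on replicates 1 and 2 were at -1.22 and -1.01, nearer to stroma than on the other 4 terminal end bud arrays. The difference between early and late slides was not tested.

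Genes that act on Rabs were read from lists of the pathway. Of 23 probes of exchange factors (21 of 34 listed genes on the array), 4 rose above stroma and 5 fell below it in terminal end buds (17.4% and 21.7%, against 23.2% and 20.4% of all probes), and 4 and 4 in ducts (17.4% each, against 16.0% and 12.2%). Dennd2d was higher at 0.51 in terminal end buds and 0.37 in ducts, and Dennd5a, an exchange factor linked to Rab6, was lower at -0.68 and -0.41. Rin2, an exchange factor for Rab5, was higher in ducts at 0.58 and at -0.06 in terminal end buds, a difference of -0.64 (adjusted p = 0.00127 with limma). Of 22 probes of GTPase-activating proteins (20 of 34 genes), 8 stood above and 5 below stroma in terminal end buds (36.4% and 22.7%), and 3 and 3 in ducts (13.6% each). Tbc1d10a, which acts on Rab27a and Rab35, was higher at 0.74 and 0.49. Tbc1d1, known from glucose transporter traffic, was higher in terminal end buds at 0.70 and at 0.20 in ducts. Tbc1d15, which acts on Rab7, was lower in terminal end buds at -0.80 and at -0.08 in ducts. Probes of Rabgap1l disagreed, with 1 lower at -1.67 and another higher at 0.46 in terminal end buds. The regulator lists were drawn up with earlier results of these data known.

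Effectors carry out the work of an active Rab. Of 32 probes (29 of 47 genes), 7 stood above and 6 below stroma in terminal end buds (21.9% and 18.8%, against 23.2% and 20.4% of all probes), and 5 and 1 in ducts (15.6% and 3.12%, against 16.0% and 12.2%). Mlph, the melanophilin that links Rab27a to a myosin motor, was the highest, from 1.32 over a median of 1.92 to 2.41 in terminal end buds and from 0.81 over 1.30 to 1.41 in ducts. Means were 1.90 and 1.24, and the difference of 0.66 passed (adjusted p = 0.0137 with limma). Rab11fip1, an effector of Rab11 and Rab25, was higher in terminal end buds at 0.35 and at -0.12 in ducts. Rabep1, the rabaptin that acts with Rab5, was lower in terminal end buds at -0.53 and at 0.01 in ducts, a difference of -0.54 (adjusted p = 0.000143). Exoc6, a subunit of the exocyst that binds Rab11, was lower at -0.90 and -0.34, and its paralog Exoc6b was higher in terminal end buds at 0.44.

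Prenylation and membrane cycle genes had 8 probes (7 of 11 genes), of which 2 stood above and 1 below stroma in terminal end buds. In ducts 1 was higher. These shares were 25.0%, 12.5% and 12.5%, against 23.2%, 20.4% and 16.0% of all probes. Rce1, a protease that trims prenylated proteins, was higher at 0.50 and 0.17, and Chm, the escort protein that presents Rabs for prenylation, was lower in terminal end buds at -0.40. SNAREs and their partners, which fuse the vesicle that a Rab has delivered, had 35 probes (32 of 35 genes). In terminal end buds 5 were higher and 14 lower (14.3% and 40.0%, against 23.2% and 20.4% of all probes). In ducts these were 4 and 5 (11.4% and 14.3%, against 16.0% and 12.2%). Between the structures 8 were lower and 0 higher in terminal end buds with limma (8 and 5 at an unadjusted p of 0.05). The 8 are 22.9% of the probes, where 10.4% of all probes were lower and 8.32% higher. Vamp8, a SNARE of regulated secretion and of lysosome fusion, was the highest at 0.81 and 0.58. Bet1, Stx2 and Stx18 were lower in terminal end buds at -0.82, -0.71 and -0.67. Of these, Stx18 was also lower in ducts at -0.49, and its difference between the structures did not pass (adjusted p = 0.228 with limma). Bet1 and Stx2 did not pass in ducts. Stxbp3, a partner of plasma membrane syntaxins, was lower than stroma in terminal end buds at -0.48 and higher in ducts at 0.28, a difference of -0.76 (adjusted p = 0.000148).

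**Figure D5:**
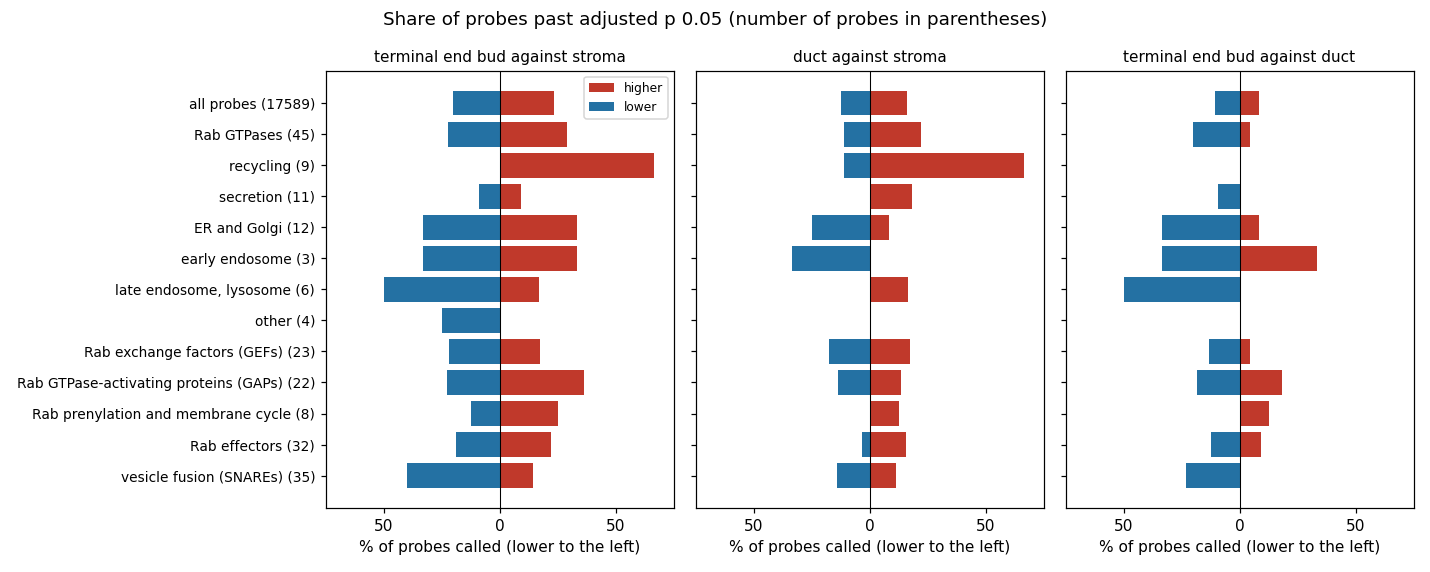
Percent of probes past an adjusted p of 0.05 with limma (bars to the right higher, to the left lower) for all probes, all Rab probes, the Rab groups and the lists of genes that act on or with Rabs, in the 3 comparisons. Recycling Rabs reach 66.7% higher in both structures, and SNAREs reach 40.0% lower in terminal end buds.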

How the data were processed

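The authors deposited a table of log2 ratios of epithelium over stroma for 12 two-colour arrays; base 2 was inferred from the values and the direction from the dyes, per the labels. The sources used here name no scanner, background correction or normalization. Array medians lay between 0.01 and 0.023, and values were used as deposited. Gene names came from the platform annotation, in which 14136 of 17589 probes had 1 symbol. A fit of 2 group means over 12 arrays (limma 3.58.1, R 4.3.3, lmFit and eBayes, two-sided) tested each mean against 0 and the difference. Benjamini-Hochberg adjustment covered the whole array, with a threshold of 0.05. SE and 95% intervals come from this fit. The number of arrays limits the precision. In simulated data of 17589 probes, 200 were changed in terminal end buds. The terminal end bud against duct comparison recovered 4.48% of changes of 0.25, 46.3% of 0.5 and 93.9% of 1 on the log2 scale. Against stroma the terminal end bud comparison recovered 22.4%, 76.1% and 100%. In the deposited data a larger share passed, 18.7% between the structures and 43.6% in terminal end buds against stroma. The adjustment is less strict there, so the simulated rates do not give the sensitivity in these data. Probes of a gene were kept apart.

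Values over arrays were given for the 6 highest and 6 lowest members past the threshold in each comparison and for Rab25, Rab11a, Rab27a, Rab27b and Rab3d; other members by their means. Of each regulator list, up to 4 genes per direction could be named. Array ranges of Rab24 and Rab38 in further comparisons were added after their values were seen. Members and lists were chosen with earlier results of these data known, and the patterns CACCTG and AACCNGTT after the start regions were read. Alternatives were centring, quantile normalization, a common median absolute deviation, probe filters, another variance model, array weights, slide order, groups fitted alone, a minimum difference, probe means, the literal name pattern and each array left out. Fits on slides up to 193, on slides from 196 on, and without the array of each structure that correlated least with its own group were added after seeing the data.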

Additional observations from a re-analysis of the deposited data

Results flagged for a closer look

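Dixon's criterion flags about 1 in 20 groups of independent, normally distributed values, and its share over all probes was not computed. By this criterion, 1 array stood apart from the other 5 in 9 of 90 groups of 6 arrays. In terminal end buds these were Rab4a on replicate 5 at 1.18, Rab10 on replicate 2 at -0.69, Rab37 on replicate 3 at -0.60, Rab33a on replicate 1 at 0.27 and Rab32 on replicate 6 at -0.36. In ducts they were Rab3b on replicate 3 at -0.55, Rab23 on replicate 4 at -0.32, Rab37 on replicate 4 at 0.97 and Rab32 on replicate 2 at 0.19. Of these, Rab4a and Rab10 passed against stroma in terminal end buds, and the array that stood apart for Rab10 was also an array without which its call was lost.

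The ratio to stroma differed between the structures, by the limma test of the difference, for 11 members. Of the members 4.44% were higher in terminal end buds and 20.0% lower, against 8.32% and 10.4% of all probes. Terminal end bud minus duct was 0.42 for Rab5c and 0.32 for Rab43. It was -0.61 for Rab9, -0.54 for Rab5a, -0.51 for Rab7, -0.41 for Rab18, -0.41 for Rab33b, -0.39 for Rab34, -0.34 for Rab1a, -0.34 for Rab27a probe 3 and -0.25 for Rab24.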

How the results depend on the processing

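Counts of Rab probes higher and lower were 13 and 10 in terminal end buds against stroma, 10 and 5 in ducts and 2 and 9 between the structures. Leaving out single arrays moved them to 10 to 14, 9 to 11, 8 to 11, 4 to 6, 2 to 3 and 6 to 9. Requiring a difference of at least 1 left 2 and 0, 2 and 0, and 0 and 0, which its construction gives. With slides up to 193 alone, 2 arrays a group, the counts were 6 higher in terminal end buds, 5 higher and 2 lower in ducts, and 0 higher and 4 lower between the structures with limma (2 and 9 at an unadjusted p of 0.05). With slides from 196 on alone 2 were lower in ducts and 3 lower between the structures, and with quantile normalization 5 were lower between them. The other counts stayed within 1.5 times of the reported ones. These fits have fewer arrays, except for quantile normalization, for which the cause was not tested.

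No call turned to the opposite direction under any alternative run. Changes of sign without a call were tracked only for members chosen by rule for array values, where no called value changed sign. Among members described by array, values that did not pass and changed sign included the following. For Rab27a probe 3 in terminal end buds they were -0.0077 with centring, -0.0069 with a common median absolute deviation, -0.094 on slides up to 193, and -0.031 to 0.041 with single arrays left out. For Rab3d in terminal end buds they were 0.31 on slides up to 193, 0.032 without the least correlated arrays, and -0.12 to 0.032 with single arrays left out. On slides up to 193, Rab27a probe 2 was at -0.059 and Rab27b at -0.028 in terminal end buds, and Rab27b at -0.0090 in ducts. Between the structures, Rab25 was at -0.18 with a common median absolute deviation, and on slides up to 193 Rab11a was at -0.30, Rab3d at 0.22 and Rab17 at 0.14. Neighbouring slides as a block kept 9 of the 11 calls between the structures and gained 2, Rab2a and Rab15. The labels give no shared replicate numbers, so this pairing rests on slide numbers alone. Small differences are what this number of arrays detects least.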

Other observations

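Start regions of Rab genes were rich in CpG pairs. For 35 of the 43 genes the RefSeq table held 46 start regions, with a median of 60.5% G and C against 52.7% over 32817 start regions, and a median CpG ratio of 0.729 against 0.383. GGGCGG was found in 29 of the 46 (63.0%) against 35.6% of all, and TATAAA in 2 (4.35%) against 13.6%. The epithelial genes Rab25 and Rab17 had CpG ratios of 0.371 and 0.216. Rab5a and Rab6a had 0.937 and 1.18, and these 4 genes were chosen after their values were seen. Several start regions of a gene can overlap, so these are not 46 independent regions.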
